A study of Mus musculus with 16 samples.

Results

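Coagulation and fibrinolysis genes, 10 in all, were followed in cultured mouse brain endothelium: Thbd, Procr, Tfpi, F3, Vwf, Plat, Plau, Plaur, Anxa2 and S100a10. They are a named list of 10 of the 54193 genes in the files. The list was set by name and not by a threshold on an expression value. The counts of every transcript of each gene were summed in each of the 16 RNA-seq libraries, and the 6 groups of genotype and drug were then compared. All 10 genes had enough counts to be tested, among 14838 genes tested in all.

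The endothelium holds blood fluid on its luminal face and seals it after injury. Tissue factor, encoded by F3, starts the coagulation cascade and is inhibited by TFPI. Thrombomodulin (Thbd) turns thrombin into an activator of protein C, which is presented by the endothelial protein C receptor (Procr). Von Willebrand factor (Vwf) tethers platelets and is stored in Weibel-Palade bodies. Fibrin is dissolved by plasmin, made from plasminogen by tissue-type (Plat) and urokinase-type (Plau) plasminogen activators. Plaur is the urokinase receptor, and annexin A2 (Anxa2) with S100A10 forms a surface complex that binds plasminogen and tissue-type activator. Cerebral cavernous malformations, which bleed and clot locally, arise when endothelial cells lose one of the CCM genes.

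The cells were mouse brain microvascular endothelial cells (mBMEC) from adult mice with a floxed Ccm3 (Pdcd10) gene and a tamoxifen-inducible Cre recombinase under the endothelial Cdh5 promoter. WT cells kept the floxed gene intact and received no 4-hydroxytamoxifen (4-OHT), whereas KO cells had been exposed to it, so genotype and 4-OHT exposure cannot be told apart. Each culture came from several pooled brains and was selected with puromycin. The groups were untreated WT (n = 3), WT with 10 µM propranolol (WT+P, n = 2), WT with 100 nM rapamycin (WT+R, n = 2), untreated KO (n = 3), KO with propranolol (KO+P, n = 3) and KO with rapamycin (KO+R, n = 3), with each drug given for 24 h. Propranolol is a beta-adrenergic blocker and rapamycin inhibits the kinase complex mTORC1. In such bulk libraries, fewer cells with a transcript and less transcript per cell cannot be told apart.

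Libraries held between 18.83 and 26.2 M counts. Counts per 1 M counts (CPM) were normalised with TMM, and TPM values, which account for transcript length, served for levels between genes. Pdcd10 stood at 31.2 and 47.0 CPM in WT replicates 2 and 3, and at 27.7 to 60.8 CPM in the treated WT libraries, against 7.83 to 16.7 CPM in the KO, KO+P and KO+R libraries. The library labelled WT replicate 1 had 11.5 CPM, within the range of the KO groups, so its label and its Pdcd10 level disagree. Fold changes against untreated WT cells that moved by more than 1.5 times when it was left out are therefore also given without it. The 10 endothelial markers summed to between 4246 and 9589 TPM in every library, and the lowest sums were those of WT+P replicate 1 and KO+P replicate 1. All 7 mural markers together reached at most 4.85 TPM, and the 7 microglial and macrophage markers at most 1.72 TPM. The 4 liver markers were at or near 0. The 6 fibroblast markers ran from 2.03 to 60.1 TPM and were highest in libraries numbered 3.

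For 5 of the 10 genes a promoter sequence was at hand, from RefSeq on build GRCm38.p6, an older build than the GRCm39 of the files. The 250 bases before the start are shown for the 4 genes whose promoter matched TGANTCA, where N is any base. It served as a loose pattern for the AP-1 motif of FOS and JUN factors. That pattern, on either strand, occurred in 6.75% of 32851 promoters cut to the same length, and the Tfpi promoters did not contain these letters. Capitals also mark the CACCC box (CACCC, in 52.0% of promoters), the GC box (GGGCGG, 32.7%), the TATA box (TATAAA, 12.4%) and the CCAAT box (CCAAT, 33.8%), each searched on both strands. Where motifs overlap, as the AP-1 motif and the CACCC box do in F3 and Anxa2, the capitals run together. The windows are chr3:121723287-121723536 for F3, chr7:24462233-24462482 for Plaur, chr9:69453433-69453682 for Anxa2 and chr2:155750967-155751216 for Procr, all on the plus strand. A match describes letters and is not a site of binding.
F3 promoter: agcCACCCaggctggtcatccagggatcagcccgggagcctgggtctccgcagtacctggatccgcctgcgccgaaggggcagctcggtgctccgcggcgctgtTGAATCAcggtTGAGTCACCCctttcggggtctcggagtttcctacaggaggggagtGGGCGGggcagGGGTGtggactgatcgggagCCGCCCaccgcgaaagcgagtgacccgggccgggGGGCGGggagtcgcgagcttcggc
Plaur promoter: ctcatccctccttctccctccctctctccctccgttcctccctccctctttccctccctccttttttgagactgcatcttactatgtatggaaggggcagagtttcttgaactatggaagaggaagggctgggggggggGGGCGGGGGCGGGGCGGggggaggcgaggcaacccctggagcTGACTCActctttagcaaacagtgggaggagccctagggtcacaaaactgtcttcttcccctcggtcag
Anxa2 promoter: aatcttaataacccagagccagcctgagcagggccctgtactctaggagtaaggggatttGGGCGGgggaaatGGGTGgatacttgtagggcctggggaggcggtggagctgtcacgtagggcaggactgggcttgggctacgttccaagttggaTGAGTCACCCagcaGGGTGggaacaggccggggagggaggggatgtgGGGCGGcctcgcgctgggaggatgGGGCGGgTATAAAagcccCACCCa
Procr promoter: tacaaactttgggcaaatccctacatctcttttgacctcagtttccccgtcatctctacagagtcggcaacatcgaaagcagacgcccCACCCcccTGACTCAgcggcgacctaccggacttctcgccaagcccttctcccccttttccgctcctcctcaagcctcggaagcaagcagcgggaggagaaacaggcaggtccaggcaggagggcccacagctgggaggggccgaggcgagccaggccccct

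F3 matched the AP-1 pattern at 2 places, beginning 146 (TGAATCA) and 135 (TGAGTCA) bases before the start, and its promoter had 3 GC boxes and no TATA box. Plaur held 1 such match, beginning 69 bases before the start. Anxa2 held 1, beginning 95 bases before the start, and also had a TATA box beginning 17 bases before it. Procr held 1, beginning 154 bases before the start. None of the 4 contained a CCAAT box. The promoters of Thbd, Vwf, Plat, Plau and S100a10 were not used here.

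Levels per transcript length spanned a wide range. Anxa2 was the most abundant of the 10, with a median of 2058 TPM (1189 to 2838) over the 16 libraries, and it was above Procr in all 16. Procr had a median of 834 TPM, S100a10 of 578 TPM, Plaur of 314 TPM and Thbd of 230 TPM. Procr stood above S100a10 in 14 libraries and S100a10 above Plaur in 16, whereas Plaur stood above Thbd in only 12. Thbd and Plau, whose median was 130 TPM, were likewise ordered alike in only 12 libraries. Tfpi followed at 61.7 TPM, Plat at 26.5 TPM and Vwf at 24.8 TPM. Plat and Vwf could not be ordered, with Plat higher in 10 of 16 libraries and in 3 of 6 group means. F3 was lowest at a median of 2.66 TPM, from 0.232 to 29.5 TPM.

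**Figure D1:**
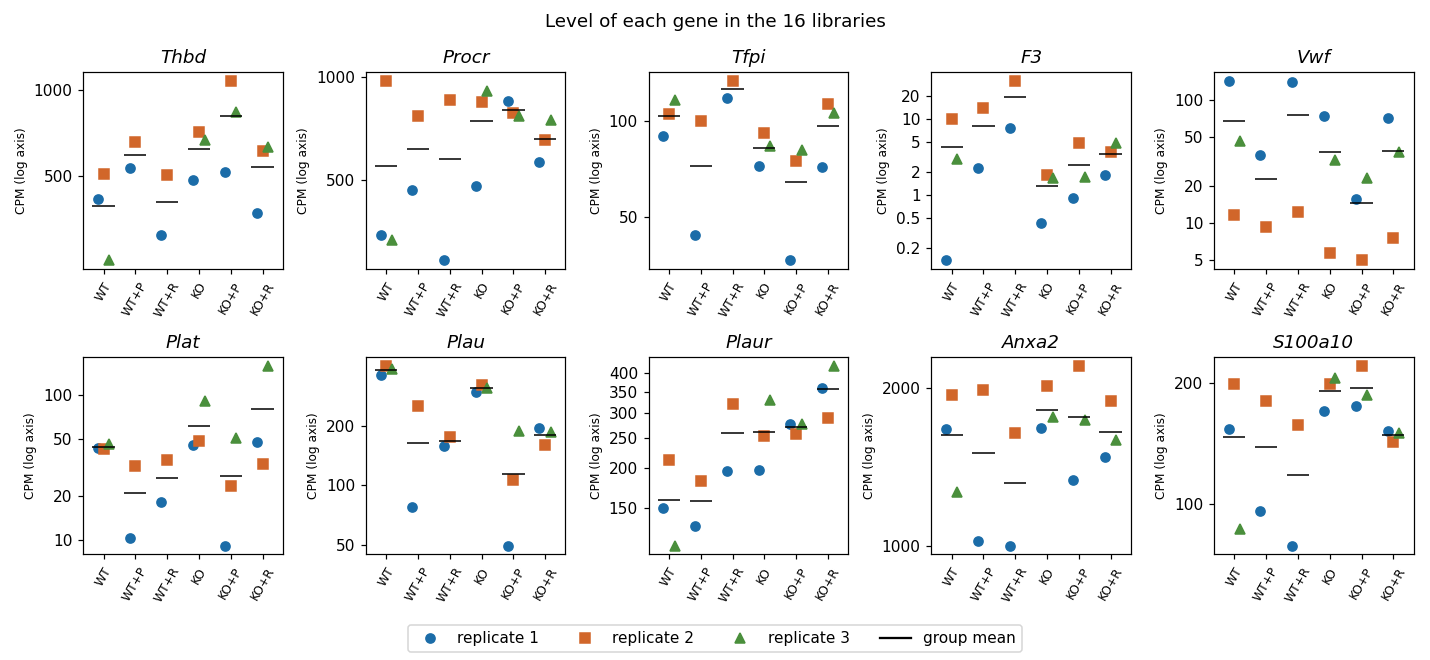
Level of each of the 10 genes in CPM (log axis) in the 16 libraries, by group, with the replicate number as symbol and the group mean as a black line. Plau is lower in every drug-treated library than in any untreated library of the same genotype, and Vwf is lowest in the libraries numbered 2 in every group.

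A gene was called where it changed more than 1.5-fold and its adjusted p was below 0.05. The quasi-likelihood test of edgeR called 0 of the 10 genes in each of the 7 comparisons of groups and in both tests of whether a drug effect differed by genotype. The deleted gene Pdcd10 was not called either. Its log2 change was −1.56 for KO vs WT (adjusted p = 0.42, edgeR) and −1.68 for KO+P vs WT+P (adjusted p = 0.481). For KO+R vs WT+R it was −2.21 (adjusted p = 0.194). A gene that was not called is thus not shown to be unchanged. Few genes were called in all, at 0.00674% of the genes tested for KO vs WT, WT+P vs WT and KO+P vs KO, 1.4% for WT+R vs WT, 1.51% for KO+R vs KO, and 0% for KO+P vs WT+P, KO+R vs WT+R and the tests of interaction. At an unadjusted p under 0.05, 1 of the 10 passed in KO vs WT, WT+P vs WT, KO+P vs KO and KO+P vs WT+P, 2 passed in WT+R vs WT, and 0 passed in KO+R vs KO, KO+R vs WT+R or the interactions. The share of all genes passing that level was 6.07% for KO vs WT, 9.87% for WT+P vs WT, 12.6% for WT+R vs WT, 12.6% for KO+P vs KO, 6.19% for KO+P vs WT+P, 12.5% for KO+R vs KO and 5.72% for KO+R vs WT+R. It was 0.721% for the interaction of genotype with propranolol and 0.762% for that with rapamycin. DESeq2 called 1 gene of the 10, Plau, in KO+P vs KO, where it called 1.11% of all genes, and 0 in the other comparisons. Libraries of the same replicate number varied together, and with the replicate number as a block F3 was called in WT+R vs WT, where 4.57% of all genes were then called. Of the 70 unblocked fold changes of the 10 genes in 7 comparisons, 27 changed sign when 1 library was left out, and 61 changed sign or moved by more than 1.5 times.

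**Figure D2:**
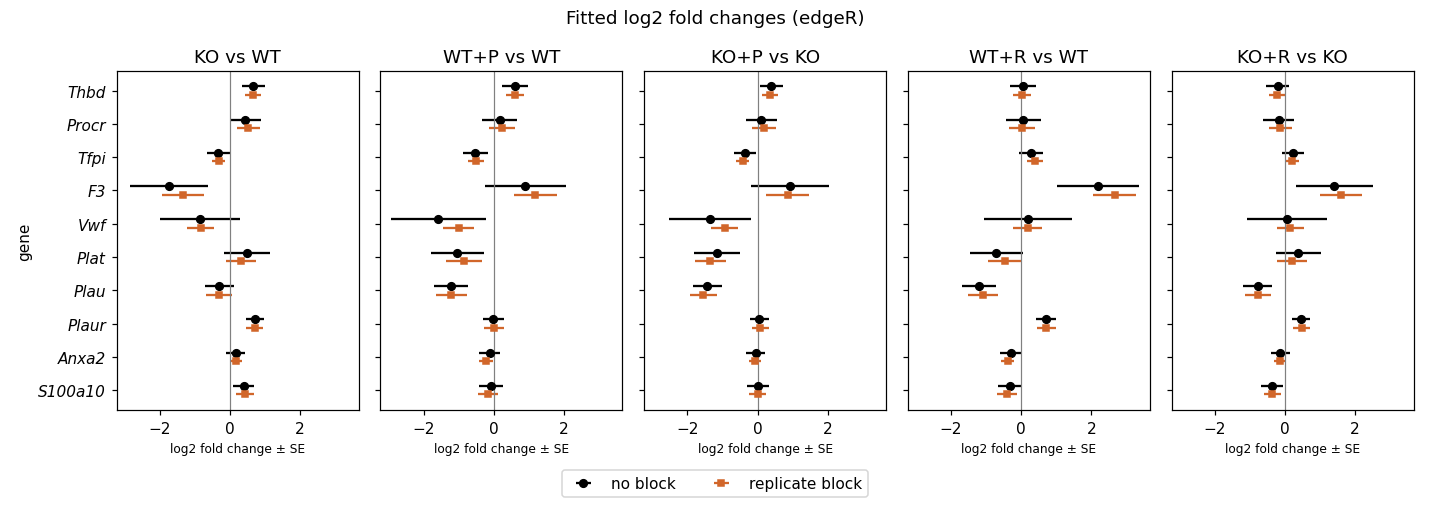
Fitted log2 fold change ± SE of each gene in 5 comparisons, without (black circles) and with (orange squares) the replicate number as a block. Plau lies below 0 in all 5 panels and F3 lies above 0 in the 4 drug panels, and the block narrows the SE of Vwf and F3.

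Plau encodes urokinase, an activator of plasminogen that works at the cell surface on its receptor. It lies at chromosome 14, 20886722 to 20893453 (GRCm39, plus strand), and 15.11% of its exonic bases overlap another annotated gene, which unstranded libraries cannot separate. The WT libraries held 364, 400 and 387 CPM, and the KO libraries 295, 323 and 310 CPM. With propranolol the WT+P libraries held 77.9 and 252 CPM and the KO+P libraries 49.6, 106 and 188 CPM. With rapamycin the WT+R libraries held 158 and 175 CPM and the KO+R libraries 196, 160 and 185 CPM. Every treated library was thus below every untreated library of its genotype, and every KO library was below every WT library. The summed endothelial markers were also lower in every treated library, with 7414 to 9589 TPM in WT, 4246 to 7053 TPM in WT+P and 6060 to 6917 TPM in WT+R cells, and with 7872 to 8746 TPM in KO, 4577 to 7622 TPM in KO+P and 6252 to 7624 TPM in KO+R cells. Of the 10 markers, 10 had a fitted change below 0 in each propranolol comparison, 7 in WT+R vs WT and 6 in KO+R vs KO, and 0 were called by edgeR. The part of the markers in the levels of Plau was not tested. Groups of one comparison did not overlap, with the first lower, in 6.5% of all genes for KO vs WT, 10.3% for WT+P vs WT, 14.7% for WT+R vs WT, 9.11% for KO+P vs KO and 13.2% for KO+R vs KO.

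The fitted log2 fold change of Plau was −1.22 ± 0.48 (SE) for WT+P vs WT and −1.43 ± 0.42 for KO+P vs KO. The adjusted p-values of edgeR were 0.475 and 0.292. For rapamycin it was −1.20 ± 0.48 in WT cells (adjusted p = 0.292, edgeR) and −0.78 ± 0.41 in KO cells (adjusted p = 0.481). DESeq2 gave an adjusted p of 0.0358 for KO+P vs KO. A fit of the KO and KO+R libraries alone called Plau (adjusted p = 0.0249, edgeR), beside 2.04% of all genes. Within each replicate number, Plau was lower with propranolol in 5 of 5 pairs, by 0.67 to 2.57 on the log2 scale, and lower with rapamycin in 5 of 5 pairs, by 0.59 to 1.20. Among all genes, 15.4% were lower in all 5 propranolol pairs and 22.9% in all 5 rapamycin pairs. Both drugs were set against the same untreated libraries.

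The pairs numbered 1 had the lowest endothelial marker sums with propranolol and also the lowest Plau. Without WT+P replicate 1 the log2 fold change of Plau for WT+P vs WT was −0.61, and without WT+P replicate 2 it was −2.30 (adjusted p = 0.0391, edgeR), in a fit that called 3.54% of all genes. Without KO+P replicate 1 the change for KO+P vs KO was −1.07, and without KO+P replicate 3 it was −1.99 (adjusted p = 0.0362), in a fit that called 2.24%. The part of these libraries in the result was not tested further. Leaving out the library labelled WT replicate 1 gave −1.26 for WT+P vs WT and −1.24 for WT+R vs WT. The change of Plau for KO vs WT was −0.31 ± 0.41 (adjusted p = 0.996, edgeR).

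Plaur, the receptor that holds urokinase on the cell surface, showed another pattern. The WT libraries held 149, 213 and 114 CPM and the KO libraries 197, 253 and 330 CPM, so that the groups overlapped. The WT+P libraries held 132 and 183 CPM, below the KO+P libraries at 277, 258 and 276 CPM, a separation upwards that 7.8% of all genes showed. The WT+R libraries held 196 and 320 CPM and the KO+R libraries 360, 288 and 421 CPM. The log2 fold change was 0.71 ± 0.26 for KO vs WT (unadjusted p = 0.0174, adjusted p = 0.627, edgeR). It was 0.78 ± 0.30 for KO+P vs WT+P (adjusted p = 0.73) and 0.47 ± 0.29 for KO+R vs WT+R (adjusted p = 1). Without the library labelled WT replicate 1 the KO vs WT change was 0.66.

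Within replicate numbers Plaur was higher in KO than in WT cells in 6 of 7 pairs. Here and below, these pairs include the library labelled WT replicate 1, whose Pdcd10 level was within the range of the KO groups. With rapamycin Plaur was higher in 5 of 5 pairs, by 0.18 to 0.87 on the log2 scale, as were 18.6% of all genes. The fitted change was 0.70 ± 0.29 for WT+R vs WT (adjusted p = 0.31, edgeR) and 0.45 ± 0.26 for KO+R vs KO (adjusted p = 0.528). The WT+R vs WT change was 0.31 without WT+R replicate 2 and 1.01 without WT+R replicate 1, and that for KO+R vs WT+R ran from 0.16 to 0.87 with 1 library left out. With propranolol the change of Plaur was −0.01 ± 0.29 in WT cells (−0.06 without the library labelled WT replicate 1) and 0.05 ± 0.26 in KO cells. The largest share of the variance of log2 CPM that the 6 groups alone accounted for, among the 10 genes, was that of Plaur at 71.6%, next to Plau at 69.3%.

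Plat encodes tissue-type plasminogen activator, which endothelium releases into the blood. The WT libraries were close together at 43.0, 42.6 and 46.1 CPM, and the KO libraries held 44.9, 48.5 and 90.4 CPM. With propranolol the values were 10.3 and 32.1 CPM in WT+P and 9.12, 23.3 and 50.7 CPM in KO+P cells. Each WT+P library was below each WT library, as for 10.3% of all genes, whereas KO+P replicate 3 was above 2 of the KO libraries. Plat was lower with propranolol in 5 of 5 pairs of the same number, by 0.41 to 2.29 on the log2 scale. Among all genes 15.4% were lower in every such pair. The fitted changes were −1.05 ± 0.76 for WT+P vs WT (adjusted p = 0.67, edgeR) and −1.15 ± 0.66 for KO+P vs KO (adjusted p = 0.477). With the replicate block the latter was −1.34 ± 0.44 (adjusted p = 0.115, edgeR), and DESeq2 with the block called it (adjusted p = 0.0202), beside 6.29% of all genes. Without WT+P replicate 1 the WT+P vs WT change of Plat was −0.45, and without WT+P replicate 2 it was −2.09. The KO+P vs KO change ran from −1.92 without KO+P replicate 3 to −0.73 without KO+P replicate 1.

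Rapamycin gave no common direction for Plat. The WT+R libraries held 18.2 and 35.5 CPM, both below the WT libraries as for 14.7% of all genes. The KO+R libraries held 47.8, 33.2 and 158 CPM. KO+R replicate 3 was thus the highest of all 16 libraries, and without it the log2 change of Plat for KO+R vs KO moved from 0.38 to −0.58. The same replicate number had the highest fibroblast marker sums (29.8 to 60.1 TPM in libraries numbered 3, against at most 26.8 TPM in the others). The part of this in the result was not tested. The difference between the rapamycin effects in KO and WT cells was 1.09 ± 0.99 (adjusted p = 1, edgeR).

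Anxa2 and S100a10, the subunits of the plasminogen-binding complex, varied together. Their log2 CPM values correlated at r = 0.867 over the 16 libraries and at 0.865 around the group means, a description over libraries that may share cultures. Anxa2 ran from 1002 CPM in WT+R replicate 1 to 2196 CPM in KO+P replicate 2, and S100a10 from 78.8 to 220 CPM in the same libraries. S100a10 held 170, 198 and 205 CPM in KO and 152, 142 and 150 CPM in KO+R libraries, without overlap. Such a separation downwards was shown by 13.2% of all genes. Its change for KO+R vs KO was −0.37 ± 0.30 (adjusted p = 0.714, edgeR). Both genes were lower with rapamycin in 5 of 5 pairs of the same number, as were 22.9% of all genes. The differences were 0.10 to 0.74 for Anxa2 and 0.16 to 0.96 for S100a10. Anxa2 was higher in KO than in WT cells in 7 of 7 pairs, as were 6.98% of all genes, by 0.0054 to 0.56 on the log2 scale. The smallest difference was that of KO replicate 1 against the library labelled WT replicate 1. The fitted change of Anxa2 for KO vs WT was 0.16 ± 0.27 (adjusted p = 0.996, edgeR).

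**Figure D3:**
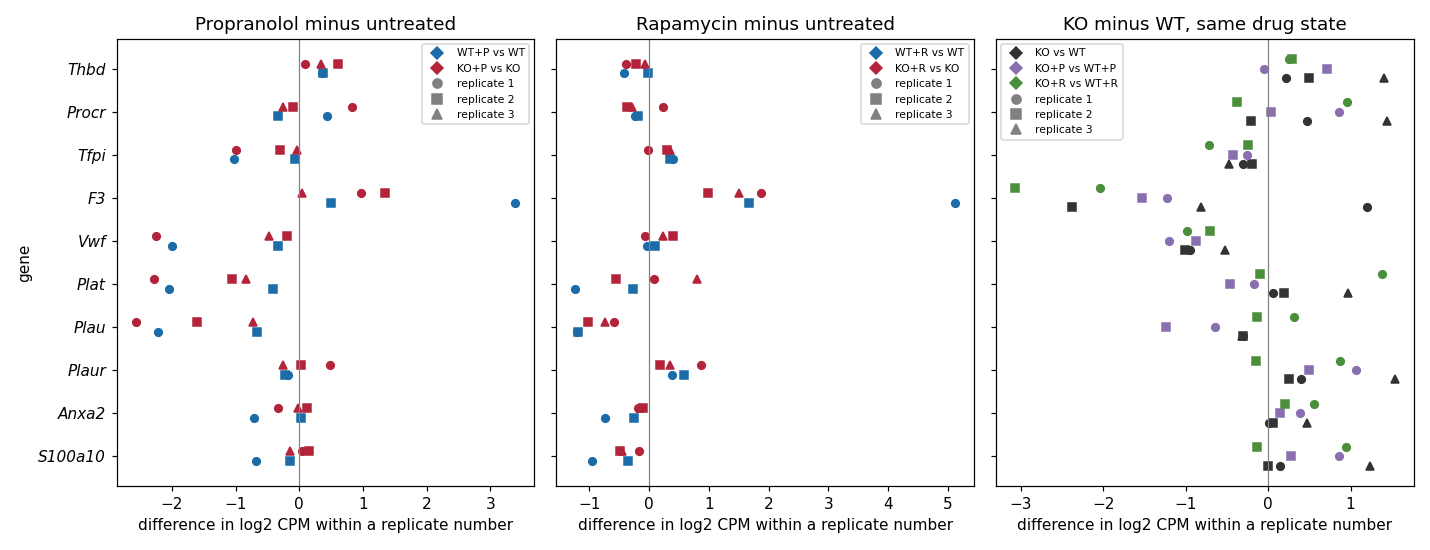
Difference in log2 CPM within each replicate number for propranolol (left, 5 pairs), rapamycin (middle, 5 pairs) and KO against WT in the same drug state (right, 7 pairs), with the replicate number as symbol and the comparison as colour. Plau and Plat lie below 0 in every propranolol pair, Plau below and Plaur above 0 in every rapamycin pair, and Vwf and Tfpi below 0 in every KO pair. The F3 points far to the right rest on 3 counts in the library labelled WT replicate 1. Each panel has a pair that uses the library labelled WT replicate 1, whose Pdcd10 level was within the range of the KO groups. The pairs of each panel come from 3 replicate numbers and cannot be taken as independent.

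Thbd encodes thrombomodulin, the surface cofactor through which thrombin activates protein C. The WT libraries held 414, 507 and 252 CPM and the KO libraries 482, 712 and 667 CPM. The WT+P libraries held 531 and 657 CPM, both above the WT libraries as for 10.8% of all genes, and the KO+P libraries 514, 1080 and 842 CPM. The WT+R libraries held 309 and 502 CPM and the KO+R libraries 368, 612 and 634 CPM. The fitted log2 change was 0.67 ± 0.33 for KO vs WT (adjusted p = 0.871, edgeR) and 0.70 without the library labelled WT replicate 1. Within replicate numbers Thbd was higher in KO cells in 6 of 7 pairs, higher with propranolol in 5 of 5 and lower with rapamycin in 5 of 5. The last held for 22.9% of all genes.

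The propranolol differences of Thbd within a number ran from 0.09 to 0.60 on the log2 scale, and 14.6% of all genes were higher in every such pair. The fitted changes were 0.60 ± 0.36 for WT+P vs WT (adjusted p = 0.59, edgeR) and 0.39 ± 0.32 for KO+P vs KO (adjusted p = 0.629). Leaving out that library in the blocked fit, a setting chosen after the data were seen, gave Thbd a change of 0.93 ± 0.23 for KO vs WT (adjusted p = 0.0927, edgeR with the replicate block), which missed the threshold.

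Procr encodes the receptor that presents protein C to the thrombin-thrombomodulin complex. The WT libraries held 346, 975 and 335 CPM and the KO libraries 481, 846 and 913 CPM. The WT+P libraries held 468 and 769 CPM, the KO+P libraries 849, 788 and 769 CPM, the WT+R libraries 293 and 858 CPM and the KO+R libraries 567, 657 and 750 CPM. All groups overlapped with their controls. The spread among WT libraries was wider than the difference between groups, and the change for KO vs WT was 0.44 ± 0.44 (adjusted p = 0.996, edgeR). That change was 0.18 without the library labelled WT replicate 1, 0.18 without WT replicate 3 and 1.13 without WT replicate 2. Procr and Thbd correlated at r = 0.726 over the 16 libraries and 0.639 around the group means.

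F3 encodes tissue factor, the receptor for factor VII that starts coagulation and is normally scarce in resting endothelium. It lies at chromosome 3, 121516610 to 121528820 (GRCm39, plus strand), and 20.72% of its exonic bases overlap genes annotated on the other strand. Its counts were low, from 3 to 738 per library. Counting error of the counts summed per group would alone give its log2 changes an SE of 0.0918 to 0.184, against fitted SEs of 1.105 to 1.177. The WT libraries held 0.138, 9.86 and 2.95 CPM, with the first of these being 3 counts in the library labelled WT replicate 1. The KO libraries held 0.426, 1.82 and 1.64 CPM, the WT+P libraries 2.27 and 13.9 CPM and the KO+P libraries 0.916, 4.75 and 1.70 CPM. The WT+R libraries held 7.70 and 31.7 CPM and the KO+R libraries 1.80, 3.69 and 4.81 CPM. Each WT+R library was above each KO+R library, as for 9.79% of all genes, and libraries numbered 1 were the lowest of their group.

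With rapamycin F3 was higher in 5 of 5 pairs of the same number, as were 18.6% of all genes. In the 4 pairs that do not use the library labelled WT replicate 1 the log2 difference was 0.99 to 1.88. The fitted change for WT+R vs WT was 2.18 ± 1.17 without the block (adjusted p = 0.492, edgeR) and 2.66 ± 0.61 with the replicate block (adjusted p = 0.0266). The unblocked value was 1.62 without the library labelled WT replicate 1, 3.66 without WT replicate 2 and 0.83 without WT+R replicate 2. In the blocked fit that left out the library labelled WT replicate 1, also chosen after the data were seen, it was 2.11 ± 0.46 (adjusted p = 0.0372). For KO+R vs KO it was 1.41 ± 1.11 (adjusted p = 0.692), and 1.59 ± 0.60 with the block (adjusted p = 0.137). DESeq2 with the replicate block called F3 in WT+R vs WT, KO+R vs KO and KO+R vs WT+R, beside 6.6%, 7.6% and 2.03% of all genes. Against WT+R cells, the fitted change of F3 in KO+R cells was −2.52 ± 1.18 (adjusted p = 0.896, edgeR). The drug effect did not differ between genotypes past the threshold, with a difference of −0.78 ± 1.60 (adjusted p = 1), or −0.20 without the library labelled WT replicate 1.

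F3 had the widest range of group means among the 10 genes, from KO to WT+R cells at 3.72 on the log2 scale. The genes whose log2 CPM followed it most closely over the 16 libraries were Ptprk (r = 0.921), Tagln (r = 0.915), Popdc2 (r = 0.907), Sulf1 (r = 0.906) and Lmod1 (r = 0.906). Tagln and Lmod1 encode actin-binding proteins known from smooth muscle. These correlations describe libraries that may share cultures, which the labels do not state. In contrast to F3, its inhibitor Tfpi correlated with it at only r = 0.511.

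Tfpi encodes tissue factor pathway inhibitor, which blocks the complex of tissue factor with factor VII and also factor X. The WT libraries held 89.7, 105 and 116 CPM and the KO libraries 72.6, 92.0 and 83.5 CPM, which overlapped only through KO replicate 2 and the library labelled WT replicate 1. The WT+P libraries held 43.8 and 101 CPM and the KO+P libraries 36.6, 74.9 and 81.6 CPM. The WT+R libraries held 118 and 134 CPM, above every WT library as for 14% of all genes. The KO+R libraries held 71.9, 113 and 106 CPM, all below the WT+R libraries as for 9.79% of all genes. Tfpi was lower in KO than in WT cells in 7 of 7 pairs, by 0.20 to 0.72 on the log2 scale, as were 7.64% of all genes. The pair that uses the library labelled WT replicate 1 differed by −0.30. The fitted change for KO vs WT was −0.33 ± 0.31 (adjusted p = 0.996, edgeR), and −0.43 without the library labelled WT replicate 1.

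With propranolol Tfpi was lower in 5 of 5 pairs, by 0.03 to 1.03, as were 15.4% of all genes. The fitted change was −0.52 ± 0.36 for WT+P vs WT (adjusted p = 0.652, edgeR) and −0.36 ± 0.31 for KO+P vs KO (adjusted p = 0.642). Most of that rested on the pairs numbered 1. Without WT+P replicate 1 the WT+P vs WT change was −0.05, and without KO+P replicate 1 the KO+P vs KO change was −0.08. Tfpi was read from 3 transcripts with at least 10% of its TPM on average. Tfpi-201 held 36.4%, Tfpi-205 34.4% and Tfpi-210 11.8%.

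Vwf encodes the platelet-tethering multimer of Weibel-Palade bodies. Its level followed the replicate number more than the group. The WT libraries held 144, 11.5 and 46.4 CPM and the KO libraries 74.4, 5.65 and 32.3 CPM for numbers 1, 2 and 3. The WT+P libraries held 36.0 and 9.15 CPM, the KO+P libraries 15.6, 4.96 and 23.2 CPM, the WT+R libraries 140 and 12.3 CPM and the KO+R libraries 71.2, 7.50 and 37.8 CPM. Libraries numbered 2 were lowest in all 6 groups, and libraries numbered 1 were highest in 5 of 6, the exception being KO+P. The replicate number alone accounted for 74.1% of the variance of log2 CPM of Vwf, and the group alone for 17.8%.

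Within replicate numbers Vwf was lower in KO than in WT cells in 7 of 7 pairs, by 0.52 to 1.20 on the log2 scale, where 7.64% of all genes were lower in every pair. The pair that uses the library labelled WT replicate 1 differed by −0.95. With the replicate block the change for KO vs WT was −0.84 ± 0.38 (adjusted p = 0.354, edgeR), and without the block it was −0.84 ± 1.14 (adjusted p = 0.996). Leaving out the library labelled WT replicate 1 turned the unblocked value to 0.36, while the blocked value without it was −0.47. Vwf was also lower with propranolol in 5 of 5 pairs, by 0.19 to 2.25, as were 15.4% of all genes. The blocked change in KO cells was −0.94 ± 0.40 (adjusted p = 0.176, edgeR). The 2 larger propranolol differences were those of the pairs numbered 1. With rapamycin the 5 pair differences of Vwf ran from −0.06 to 0.40, and the fitted change was 0.18 ± 1.26 in WT cells and 0.05 ± 1.14 in KO cells. Both changed sign with single libraries. The WT+R vs WT change of Vwf was −2.45 without WT+R replicate 1 and 1.39 without the library labelled WT replicate 1, and the KO+R vs KO change was −0.70 without KO+R replicate 1 and 1.04 without KO replicate 1.

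The TPM of Vwf came mostly from short transcripts. Vwf-209, with 456 bases, held 59.3% of the TPM on average and Vwf-210, with 2686 bases, held 27.5%. Vwf-209 is annotated without a defined coding sequence, and Vwf-210 as subject to nonsense-mediated decay. They held 6.73% and 42.5% of the counts. The transcript of 8834 bases, Vwf-203, held 9.30% of the TPM and 47.0% of the counts, and its own TPM ran from 0.399 to 11.3. The level of Vwf per length therefore depends on how reads were shared among its transcripts, whereas its summed counts do not. Those summed counts include the reads assigned to Vwf-209 and Vwf-210. Megakaryocytes and platelets also make Vwf, and their 6 markers summed to 2.42 to 14.5 TPM. Of these only Itga2b and Gp1ba had enough counts to be tested.

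**Figure D4:**
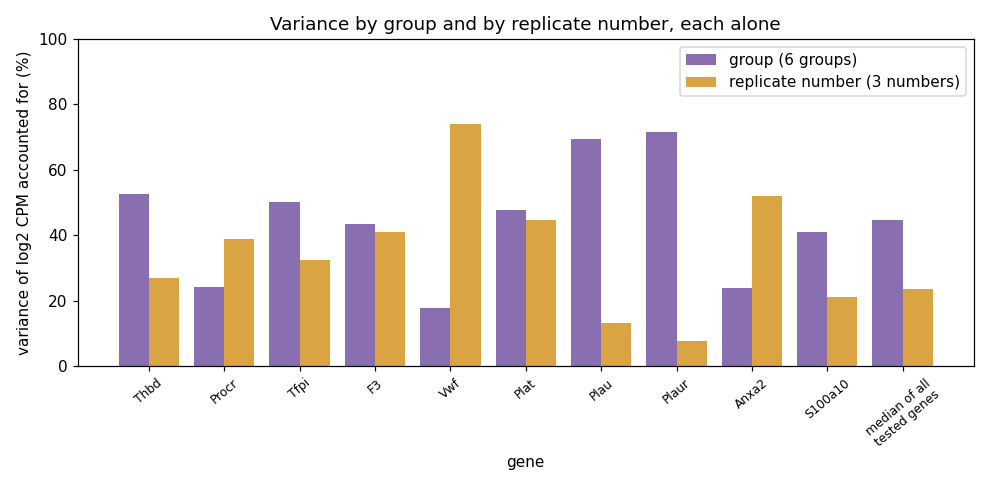
Share of the variance of log2 CPM (%) that the 6 groups (purple) and the 3 replicate numbers (yellow) account for, each alone, for the 10 genes and as the median of all tested genes. Vwf, Anxa2 and Procr lie higher for the replicate number, and Plaur and Plau lie highest for the group. The shares are not adjusted for the numbers of levels, and 6 levels take up more noise than 3.

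The replicate number alone held more of the variance than the group alone for 3 of the 10 genes, Vwf, Anxa2 and Procr, and for 32.4% of all genes tested. The group alone held 44.7% in the median over all genes, and the replicate number alone 23.4%. Plau at 13.0% and Plaur at 7.66% depended least on the number among the 10 genes. The median log2 change of the 10 genes was 0.27 for KO vs WT, −0.10 for WT+P vs WT, 0.06 for WT+R vs WT, −0.02 for KO+P vs KO and −0.04 for KO+R vs KO, and that of all tested genes lay between −0.02 and 0.0036.

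Of 50 other genes of coagulation, fibrinolysis and platelet control on a list, 28 had enough counts to be tested. Of 15 coagulation factor and fibrinogen genes only F5 and F8 did, and 6 were at 0 in every library. In WT+R vs WT 0 of the 28 were called higher and 1 lower, and in KO+R vs KO 0 were called higher and 2 lower. None was called in the other 5 comparisons by edgeR. F2rl3, which encodes the thrombin receptor PAR4, fell in both, from 28.3, 24.8 and 22.6 CPM in WT to 2.77 and 5.46 CPM in WT+R cells, and from 37.3, 30.2 and 32.6 CPM in KO to 5.08, 7.42 and 6.37 CPM in KO+R cells. The log2 changes of F2rl3 were −2.61 ± 0.53 (adjusted p = 0.0298, edgeR) and −2.40 ± 0.45 (adjusted p = 0.0212). Without the library labelled WT replicate 1 the first was −2.53 (adjusted p = 0.0777), and leaving out any other library of either comparison also took the adjusted p above 0.05.

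Rab27a, a GTPase of Weibel-Palade body traffic, fell from 5.00, 5.65 and 5.64 CPM in KO to 1.22, 2.46 and 1.29 CPM in KO+R cells. Its log2 change was −1.70 ± 0.32 (adjusted p = 0.0212, edgeR), and it held with KO+R replicate 2 left out (adjusted p = 0.0249) but with no other library left out. With the replicate block, 1 of the 28 was called higher and 5 lower in each rapamycin comparison, beside 4.57% of all genes in WT+R vs WT and 4.98% in KO+R vs KO. F2r, F2rl1, F2rl2, F2rl3 and Rab27a were the 5 lower ones in both, so that all 4 genes for protease-activated receptors were lower. Ptgis, which encodes prostacyclin synthase, was the one called higher in WT+R vs WT, and Serpine2, which encodes a thrombin inhibitor, the one in KO+R vs KO.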

How the data were processed

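Poly(A) RNA of 16 libraries had been sequenced unstranded. For each transcript of a library the authors deposited an expected count, its TPM and, as another quantity, the effective length in bases, in Salmon's format. The submitters' processing notes name Salmon 1.5.2 and GRCm39, while the paper names STAR and HTSeq. GENCODE vM39 (GRCm39) named 99.12% of 140789 transcripts, whose counts were summed per gene and rounded. 0 columns of values were left unused.

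All groups were fitted in 1 quasi-likelihood model with edgeR 4.0.16 (R 4.3.3, TMM, filterByExpr, 10 residual degrees of freedom), and p-values were adjusted by Benjamini-Hochberg over 14838 genes. Log2 CPM used a prior count of 2. The common biological coefficient of variation of edgeR was 32.3% between libraries of a group, and 19% once blocked by replicate number. The fitted SE was at least 6.01 times the counting error of the counts summed per group for each of the 10 genes. With the block it was at least 3.32 times that error. Same-numbered libraries deviated together, with correlations from 0.189 upwards in KO and WT, from 0.306 in KO+P and KO, and from 0.414 in KO+R and KO. Over all pairs of groups, also those not compared, r was 0.0323 to 0.693 for the same number and −0.693 to 0.395 for different numbers. The numbers were taken as pairing the libraries of the groups compared, although the labels do not state it. The 2 ranges of r overlapped. Deviations around the mean of 2 libraries are opposite, so r for different numbers is partly fixed in advance. DESeq2 1.42.0, other normalisations and filters, a length offset, glmTreat and leaving out each library were alternatives. The fits were also run on simulated libraries that held no differences between replicate numbers, unlike these data. That run does not bear on the results given here.

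The members and lists were chosen with earlier results of these data known. 1 gene of the list is not reported here and was left out of its counts. Named were the 10 genes, up to 5 called list genes per comparison and the 5 genes most like the gene of widest range.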

Additional observations from a re-analysis of the deposited data

How the results depend on the processing

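No alternative turned the direction of a called value. In the main fit the called values followed through the alternatives were those of F2rl3 and Rab27a. Under an alternative, 21 of their values lost the call, and 16 uncalled values of F2rl3, Rab27a or Pdcd10 passed the threshold. The count of the 10 genes called, 0 in the main fit of each of the 9 comparisons, moved to 1 with the replicate block in WT+R vs WT (F3), and to 1 there with the block and WT replicate 1 left out, a setting added after the data were seen. It moved to 1 with DESeq2 in KO+P vs KO (Plau). DESeq2 with the replicate block gave 1 in WT+R vs WT, KO+R vs KO and KO+R vs WT+R (F3 in each) and 2 in KO+P vs KO (Plat and Plau). Fitting only the groups contrasted gave 1 in KO+R vs KO (Plau), beside 2.04% of all genes. Leaving out one library gave 0 to 1 in WT+P vs WT and in KO+P vs KO, with Plau called without WT+P replicate 2 or KO+P replicate 3, and 0 elsewhere. The replicate block changed no other call of the 10 genes. The cause of these moves was not tested. Of the single values of the 10 genes under an alternative, 1402 kept direction and call, 117 uncalled values changed sign and 11 passed the threshold. Over all genes, the replicate block called 27 rather than 1 in KO vs WT, 12 rather than 1 in WT+P vs WT, 21 rather than 1 in KO+P vs KO, 678 rather than 207 in WT+R vs WT and 739 rather than 224 in KO+R vs KO. DESeq2 called 65 in KO vs WT, 118 in WT+P vs WT, 164 in KO+P vs KO, 542 in WT+R vs WT and 471 in KO+R vs KO. Of the 28 list genes tested, the replicate block called 6 rather than 1 in WT+R vs WT and 6 rather than 2 in KO+R vs KO. For all 10 genes, also F3 with 3 to 738 counts per library, the fitted SE exceeded the counting error of the counts summed per group. Summed counts do not show the error of a single library with few counts, and the part of depth was not tested.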
